A study of Mus musculus with 6 samples.

Results

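The Smad proteins carry signals of the TGF-beta and BMP growth factors to the nucleus, and the Id genes are among their targets. The genes examined were Smad1, Smad2, Smad3, Smad4, Smad5, Smad6, Smad7, Id1, Id2 and Id3, taken as every array probe whose platform gene symbol was 1 of these 10. Of the 10 genes, 9 had a probe, with 17 probes out of 45281 on the array and 9 genes out of 19057 named ones. Smad4 had no probe under its symbol in the annotation used and was not analysed here. The RNA was enriched for endothelium and taken from wild-type (WT) C57Bl/6J carotid artery, with 3 arrays described as stable flow and 3 as disturbed flow. No other allele or agent is named in the labels for either group, and the sources used here do not state the age of the mice. Whether replicates were separate animals is not stated either, so a p-value here covers the spread among these samples alone, and that spread may be technical.

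Receptors of the TGF-beta family phosphorylate receptor-activated Smads, which then join the common mediator Smad4 and enter the nucleus. Smad1 and Smad5 act mainly below BMP receptors, and Smad2 and Smad3 mainly below TGF-beta and activin receptors. Smad6 and Smad7 are inhibitory Smads, induced by the pathway and acting back on its receptors and transducers. Id1, Id2 and Id3 are helix-loop-helix proteins that bind E proteins and keep them off DNA, and in endothelium they are well-known targets of BMP signalling. Phosphorylation sets the activity of Smads, and the arrays measured RNA only.

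Which array belonged to which group was not settled. Each of the 6 columns of the authors' series matrix had the rank order of a scanned array that the descriptions place in the other group, in 6 of 6 cases. Groups here follow the descriptions, and a positive difference means a higher level on the arrays described as disturbed flow. With the matrix columns as named, the differences of all 22 single probes tested and named below had the opposite sign. All stable flow arrays lay on 1 slide and all disturbed flow arrays on another, so the slides cannot be told apart from the groups. The share of all probes above background (detection p under 0.05) ran from 19.6% to 35.0% on 5 arrays and was 9.74% on stable flow replicate 2. The defining endothelial markers were present: Pecam1 had log2 intensities of 9.40 to 10.39 and Cdh5 of 6.23 to 7.59 over the 6 arrays, and 12 of 13 endothelial markers passed the filter on dim probes. So did 4 of 8 smooth muscle and 5 of 7 fibroblast and adventitia markers, and 0 of 4 lymphocyte and leukocyte markers, of which only 2 had a probe. The smooth muscle marker Acta2 had 7.75 to 8.48, and the adventitia marker Pi16 had 4.32 to 10.01 over the 6 arrays.

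The first question was which of these transcripts could be seen at all. Of the 17 probes, 3 were above background on all 6 arrays, namely both bright Smad1 probes and the Id3 probe, and 8 on 5 arrays. The Smad2 probe was above background on 4 arrays, 1 dim Smad1 probe on 1 array, and 4 probes on 0 arrays. Those 4 were a pair of Smad1 probes, 1 Smad5 probe and the sole Smad6 probe. On stable flow replicate 2, 13 of the 17 probes were not above background, against 4 to 6 on each of the other arrays. The 12 probes above background on at least 3 arrays were tested, and they stand for 8 genes, with Smad6 left out.

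**Figure D1:**
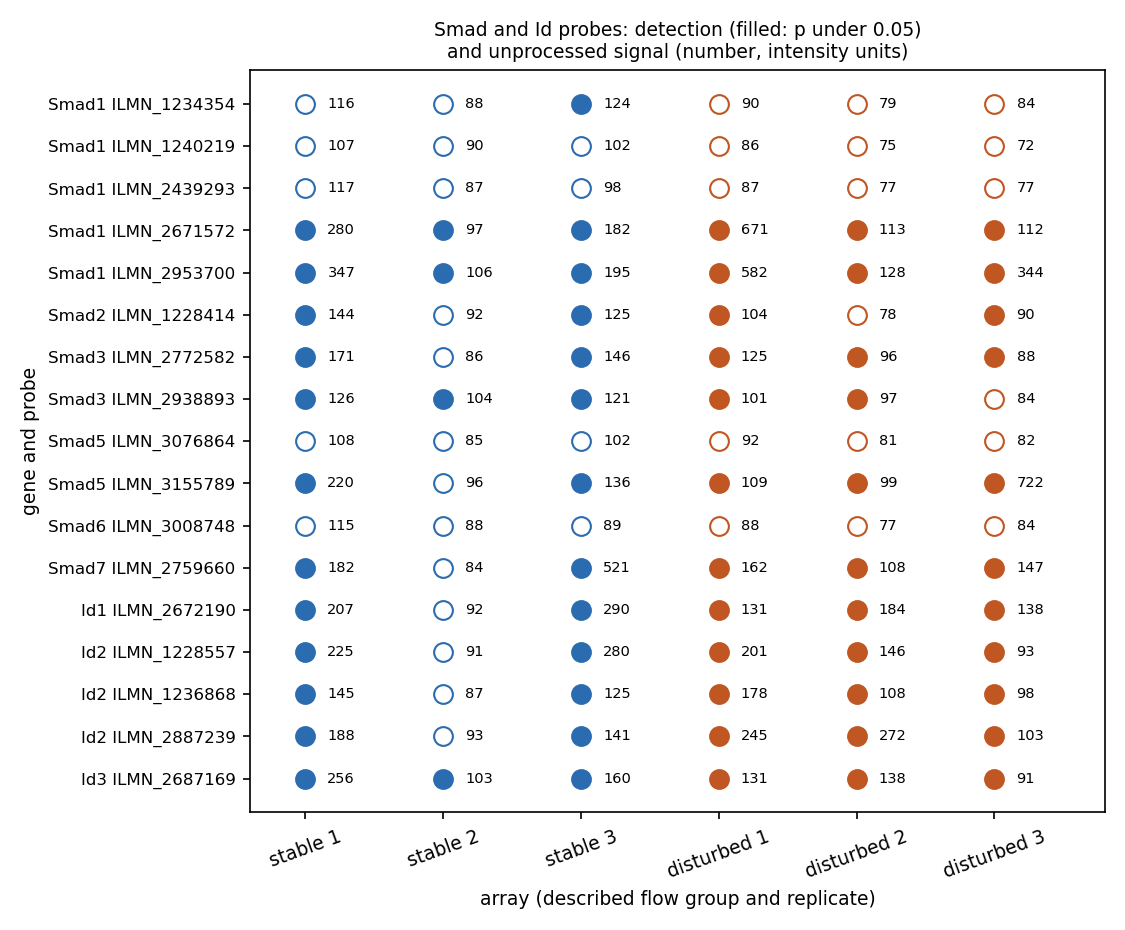
Unprocessed signal (numbers, in intensity units) of the 17 Smad and Id probes (rows) on the 6 arrays (columns, blue for described stable flow and orange for described disturbed flow). Filled circles mark a detection p under 0.05: stable flow replicate 2 has 4 filled circles, and Smad6 has none on any array.

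Over the whole table limma called 0 of 12546 tested probes at an adjusted p under 0.05 (0%), and 338 at an unadjusted p under 0.05 (2.69%). Of the 12 Smad and Id probes, 0 were called, with limma adjusted p-values of 0.890 to 0.976. At an unadjusted p under 0.05 there were 2, both probes of Id2, so they are a single gene and not independent of each other. The same pair were the probes without overlap between the groups after normalization, 2 of 12, where 9.68% of all tested probes did not overlap. Differences were positive for 9 probes and negative for 3, and for 9 of the 12 the difference was smaller than the larger of the SDs within the groups. Since the median difference over the whole tested table was 0.098, with 57.4% of the differences positive, a positive sign alone does not set a probe apart. Scaling to a common 75th percentile moved that median to -0.126. All levels that follow are log2 intensities after background correction and quantile normalization. In RNA from many cells, fewer cells of a type and less RNA per cell cannot be told apart.

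The BMP-side transducers varied widely between arrays of 1 group. Smad1 (probe ILMN_2953700) had 7.06, 7.85 and 6.81 on stable flow replicates 1, 2 and 3. On disturbed flow replicates 1, 2 and 3 it had 8.46, 6.23 and 8.84. Disturbed flow replicates 1 and 3 were the highest and replicate 2 the lowest of all 6 arrays after normalization, so the groups overlapped. In unprocessed signal, where background differs between arrays, it had 347, 106.4 and 195.1 against 582.4, 127.8 and 344.2. There stable flow replicate 2 was the lowest. The means were 7.24 ± 0.54 and 7.84 ± 1.41 (SD, n = 3 each), a difference of 0.60 (SE 0.71, 95% confidence interval -1.06 to 2.27, limma adjusted p = 0.893). Without disturbed flow replicate 3 the difference was 0.089, and without replicate 2 it was 1.37.

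The other bright Smad1 probe, ILMN_2671572, had 6.56, 6.11 and 6.64 under stable flow, and 8.72, 5.92 and 6.74 under disturbed flow. After normalization, disturbed flow replicates 1 and 3 were again the highest and replicate 2 the lowest. Replicate 3, at 6.74, lay close to the 6.64 of stable flow replicate 3. The unprocessed signals were 280.5, 97.3 and 181.5 against 670.9, 113.2 and 112.4. By these, stable flow replicate 2 was the lowest, and disturbed flow replicate 3 lay below stable flow replicates 1 and 3. The difference was 0.69 (SE 0.69, limma adjusted p = 0.890), and -0.10 without disturbed flow replicate 1. Lyz2, the 1 measured gene of 6 macrophage and monocyte markers, was also highest on disturbed flow replicate 1, at 8.01 against 4.35 to 5.91 elsewhere. On a linear scale that is 20 to 60 under stable flow and 28 to 257 under disturbed flow. That array was also the highest for 2 of 4 measured smooth muscle markers. These were Mylk at 8.30 against 4.22 to 5.89 and Smtn at 6.10 against 4.28 to 5.36. The other 2 did not share this. Acta2 was lower on that array than on every stable flow array (8.14 to 8.48), and Myh11 had 4.66 against 4.26 to 4.75. Disturbed flow replicate 1 was the highest for 1 of 12 endothelial markers, Tie1, at 8.47 against 5.92 to 6.75. The part of these cells in the Smad1 value was not tested.

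The 3 dim Smad1 probes gave no level for the gene. Probe ILMN_1234354 was above background on stable flow replicate 3 alone, with a signal of 124, and not well above background on any disturbed flow array. Stable flow replicate 2, at 4.39, lay below all 3 disturbed flow arrays, at 4.44 to 4.61, so no direction is given.

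Smad5 (probe ILMN_3155789) rested on 1 array. Under stable flow it had 6.01, 5.67 and 5.79, and under disturbed flow 5.12, 5.47 and 9.68. Disturbed flow replicate 3 stood above all others, with an unprocessed signal of 722 against 95.8 to 220 on the other 5 arrays. The other 2 disturbed flow arrays lay below all 3 stable flow arrays. The means were 5.82 ± 0.17 and 6.76 ± 2.53 (SD, n = 3 each), a difference of 0.93 (SE 1.13, 95% confidence interval -1.71 to 3.58, limma adjusted p = 0.895) that turned to -0.56 without disturbed flow replicate 3. The second Smad5 probe, ILMN_3076864, was not above background on any array, disturbed flow replicate 3 included, where its signal was 82.5. Alas2, the heme synthesis gene of red cell precursors, was likewise highest on disturbed flow replicate 3, at 8.25 against 4.31 to 4.71 elsewhere. The globin genes did not share this, with Hbb-bs at 9.99 on that array against 9.87 to 10.32 under stable flow and Hba-a1 at 8.21 against 8.18 to 9.15. The summed linear level of the 3 red cell markers measured of 3 was 1530 to 1755 under stable flow and 422 to 1617 under disturbed flow. Disturbed flow replicate 3 was also the highest for 3 of 12 endothelial markers. These were Sox17 at 9.38 against 6.76 to 7.88, Nos3 at 6.85 against 4.94 to 6.18, and Cldn5 at 9.13 against 5.76 to 8.91. The part of red cells or of endothelial cells in the Smad5 value was not tested.

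Of the TGF-beta-side transducers, Smad2 lay close to the floor, and both Smad3 probes were above background on 5 arrays. Smad2 (probe ILMN_1228414) had 5.01, 4.75 and 5.48 under stable flow and 4.95, 4.40 and 5.32 under disturbed flow. In each group replicate 3 was highest and replicate 2, which was not above background, lowest. The difference was -0.19 (SE 0.39, 95% confidence interval -1.11 to 0.73, limma adjusted p = 0.932), the narrowest interval among the 12 probes, and it turned to 0.057 without disturbed flow replicate 2.

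The probes of Smad3 disagreed. Probe ILMN_2938893 had 4.69, 7.58 and 5.33 under stable flow and 4.84, 5.42 and 4.59 under disturbed flow. Only stable flow replicate 2 stood apart. That array had the narrowest spread of unprocessed log2 signal over the tested probes, an interquartile range of 0.142 against 0.297 to 0.932 on the others, and the part of that spread in the value was not tested. The difference was -0.92 (SE 0.74, limma adjusted p = 0.890), and -0.069 without that array. Probe ILMN_2772582 had 5.42, 4.31 and 6.03 against 5.53, 5.36 and 5.12, with stable flow replicate 2 now the lowest and not above background. Its difference was 0.085 (SE 0.48, limma adjusted p = 0.976), and -0.41 without stable flow replicate 2.

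**Figure D2:**
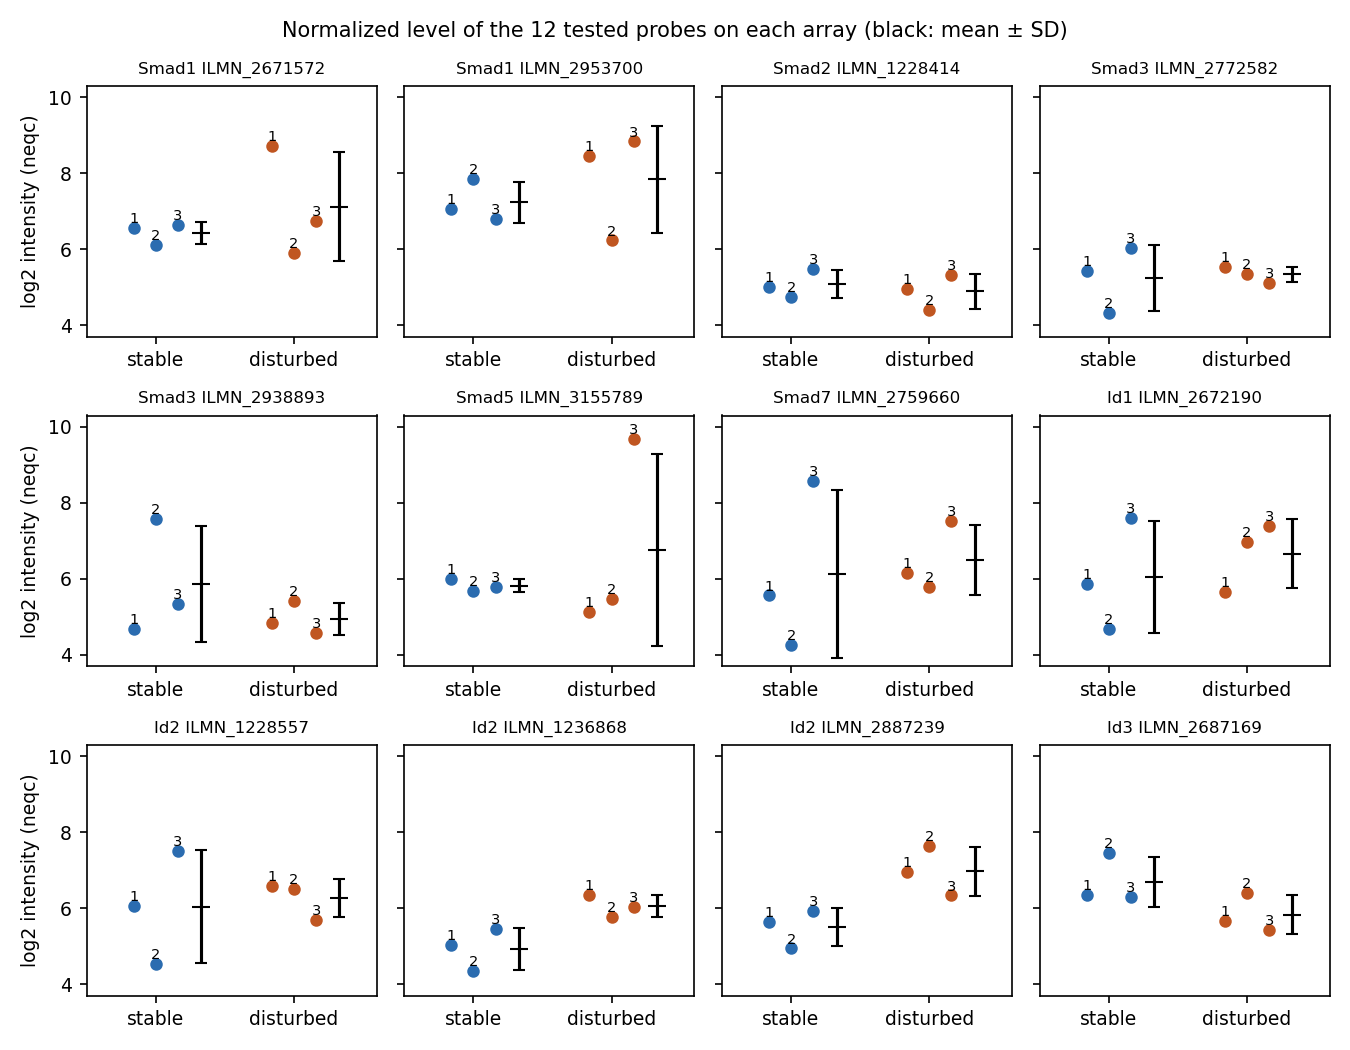
Normalized log2 intensity (vertical axis, the same in all panels) of the 12 tested Smad and Id probes, 1 panel per probe, with 3 arrays described as stable flow (blue) and 3 as disturbed flow (orange), numbered by replicate. Black bars give the mean ± SD (n = 3): in the panels of Id2 probes ILMN_1236868 and ILMN_2887239 the groups do not overlap, and the Smad5 value of 9.68 stands alone on disturbed flow replicate 3.

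Of the inhibitory Smads, Smad6 was not above background on any array, with unprocessed signals of 77.2 to 115 and no test. Smad7, the inhibitor of TGF-beta receptors and of both Smad branches, had the probe ILMN_2759660 above background on 5 arrays. It had 5.56, 4.26 and 8.57 under stable flow and 6.16, 5.78 and 7.53 under disturbed flow. The highest and the lowest of the 6 values were both stable flow arrays, replicates 3 and 2, so the disturbed flow range lay inside the stable flow range. The means were 6.13 ± 2.21 and 6.49 ± 0.92 (SD, n = 3 each), a difference of 0.36 (SE 1.07, 95% confidence interval -2.15 to 2.86, limma adjusted p = 0.952). Without stable flow replicate 2 the value was -0.58, without stable flow replicate 3 it was 1.58, and with array weights it was -1.02.

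The Id genes held the smallest p-values of the set and also opposite signs. Id2 and Id3 are shown with the 250 bases upstream of their RefSeq starts (GRCm38.p6), because they had the most positive and the most negative difference among the Id genes. Capitals mark GGCGCC, the core of the GC-rich BMP response element known from the mouse Id1 gene, and CAGAC or its reverse complement GTCTG, the box bound by Smad3 and Smad4.
Id2, chr12:25096093-25096342, minus strand: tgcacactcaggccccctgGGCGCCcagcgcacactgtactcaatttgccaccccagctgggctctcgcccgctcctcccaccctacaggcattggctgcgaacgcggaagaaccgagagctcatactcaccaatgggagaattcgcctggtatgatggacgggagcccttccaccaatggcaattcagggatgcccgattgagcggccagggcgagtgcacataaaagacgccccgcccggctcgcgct
Id3, chr4:136143572-136143821, plus strand: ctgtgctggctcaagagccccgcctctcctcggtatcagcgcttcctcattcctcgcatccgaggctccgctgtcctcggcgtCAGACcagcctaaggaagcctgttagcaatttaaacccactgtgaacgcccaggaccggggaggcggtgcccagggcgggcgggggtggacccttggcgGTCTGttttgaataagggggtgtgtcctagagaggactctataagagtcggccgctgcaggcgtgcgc
The Id2 window held 1 GGCGCC and 0 CAGAC, and the Id3 window 0 and 2, searched on both strands. Of all 32851 windows of this length, 9.59% held GGCGCC and 42.2% held CAGAC. The palindrome GTCTAGAC, found in 0.167% of windows, was in none of the 8 windows of the 6 matched genes, which were Smad1, Smad3, Smad5, Smad6, Id2 and Id3. Among the windows not printed, 1 of Smad5 held 1 GGCGCC and another of Smad5 held 1 CAGAC. Those of Smad1, Smad3 and Smad6 held neither. Smad2, Smad4, Smad7 and Id1 were not matched to a window here, so theirs are not described. A match is a description of letters and not a site.

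Id2 had 3 tested probes. The one with the highest mean, ILMN_2887239, had 5.63, 4.94 and 5.93 under stable flow, and 6.96, 7.64 and 6.34 under disturbed flow. All 3 disturbed flow arrays lay above all 3 stable flow arrays, and the lowest, stable flow replicate 2, was not above background. The means were 5.50 ± 0.51 and 6.98 ± 0.65 (SD, n = 3 each), a difference of 1.47 (SE 0.46, 95% confidence interval 0.39 to 2.56, unadjusted p = 0.0144 and adjusted p = 0.890, limma). It did not pass the adjustment over all probes. The background of probes higher on all disturbed flow arrays was 5.68%. In unprocessed signal, where background differs between arrays, the groups overlapped on this probe, with 188, 93.0 and 141 against 245, 272 and 103.

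Id2 probe ILMN_1236868 also separated the groups after normalization. It had 5.02, 4.34 and 5.45 under stable flow and 6.36, 5.76 and 6.05 under disturbed flow, again without overlap. Stable flow replicate 2 was again the lowest and not above background. In unprocessed signal the groups overlapped on this probe too, with 145.1, 87.3 and 124.6 against 178.5, 107.7 and 97.9. The difference was 1.12 (SE 0.40, 95% confidence interval 0.18 to 2.06, unadjusted p = 0.0260 and adjusted p = 0.890, limma). The third Id2 probe, ILMN_1228557, did not share it. It had 6.06, 4.54 and 7.52 against 6.60, 6.52 and 5.70, with the highest value on stable flow replicate 3, and a difference of 0.23 (SE 0.73, limma adjusted p = 0.953) that was -0.53 without stable flow replicate 2. Quantile normalization with no background correction gave 0.68, 0.40 and 0.015 for ILMN_2887239, ILMN_1236868 and ILMN_1228557. With scaling to a common 75th percentile they were 1.26, 0.76 and -0.16.

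Id1 (probe ILMN_2672190), the Id gene most often used to read out BMP signalling in endothelial cells, had a disturbed flow range inside its stable flow range. It had 5.86, 4.68 and 7.60 under stable flow and 5.65, 6.96 and 7.39 under disturbed flow. Stable flow replicate 3 was the highest and stable flow replicate 2, not above background, the lowest, as for Smad7. The means were 6.05 ± 1.47 and 6.67 ± 0.90 (SD, n = 3 each), a difference of 0.62 (SE 0.80, 95% confidence interval -1.25 to 2.49, limma adjusted p = 0.895). It was -0.064 without stable flow replicate 2, 1.39 without stable flow replicate 3, -0.039 with cyclic loess and -0.27 with array weights.

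Id3 (probe ILMN_2687169) had the opposite sign. It had 6.35, 7.45 and 6.29 under stable flow and 5.66, 6.40 and 5.42 under disturbed flow. Stable flow replicate 2 was the highest after normalization. Disturbed flow replicate 2 lay between the stable flow values, so the groups overlapped on this 1 array. In unprocessed signal, where background differs between arrays, stable flow had 256, 103 and 160, and disturbed flow 131, 137.5 and 90.6. Stable flow replicate 2 was thus not the highest before normalization. The part of its narrow signal spread in the Id3 value was not tested. The means were 6.70 ± 0.65 and 5.83 ± 0.51 (SD, n = 3 each), a difference of -0.87 (SE 0.46, 95% confidence interval -1.95 to 0.22, limma adjusted p = 0.890). It was -0.52 without stable flow replicate 2, -0.41 with no background correction and -0.46 with array weights.

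**Figure D3:**
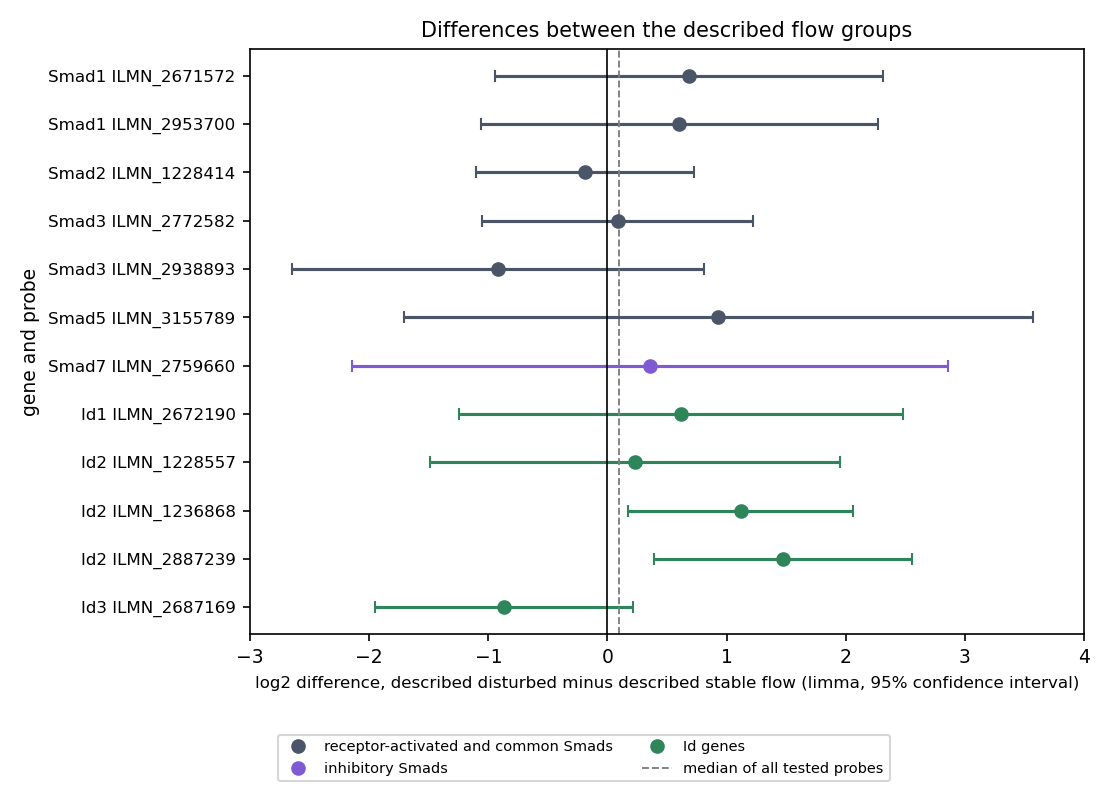
Log2 difference between the described groups (horizontal axis, disturbed minus stable flow) for the 12 tested probes, with 95% confidence intervals from limma, coloured by role. Smad4 has no probe and Smad6 was not tested, so grey points are receptor-activated Smads and the purple point is Smad7. The intervals of 10 probes hold 0, and those of Id2 probes ILMN_1236868 and ILMN_2887239 do not, before any adjustment.

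Set side by side by role, with 1 probe a gene, the 4 measured transducers had differences of -0.92 to 0.93 and a median of 0.21, with 2 higher and 2 lower. The 1 measured inhibitory Smad had 0.36. The 3 Id genes had -0.87 to 1.47 and a median of 0.62, with 2 higher and 1 lower. All tested probes had a median of 0.098 and quartiles of -0.27 and 0.46. The class medians were not stable: leaving out single arrays gave -0.50 to 0.71 for the transducers, -0.58 to 1.58 for Smad7 and -0.064 to 1.39 for the Id genes. By array, the median level of the Id genes was 5.86, 4.94 and 6.29 under stable flow and 5.66, 6.96 and 6.34 under disturbed flow. The same medians of the transducers were 5.51, 6.62 and 5.64, and 5.04, 5.45 and 7.08. In each class the groups overlapped.

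**Figure D4:**
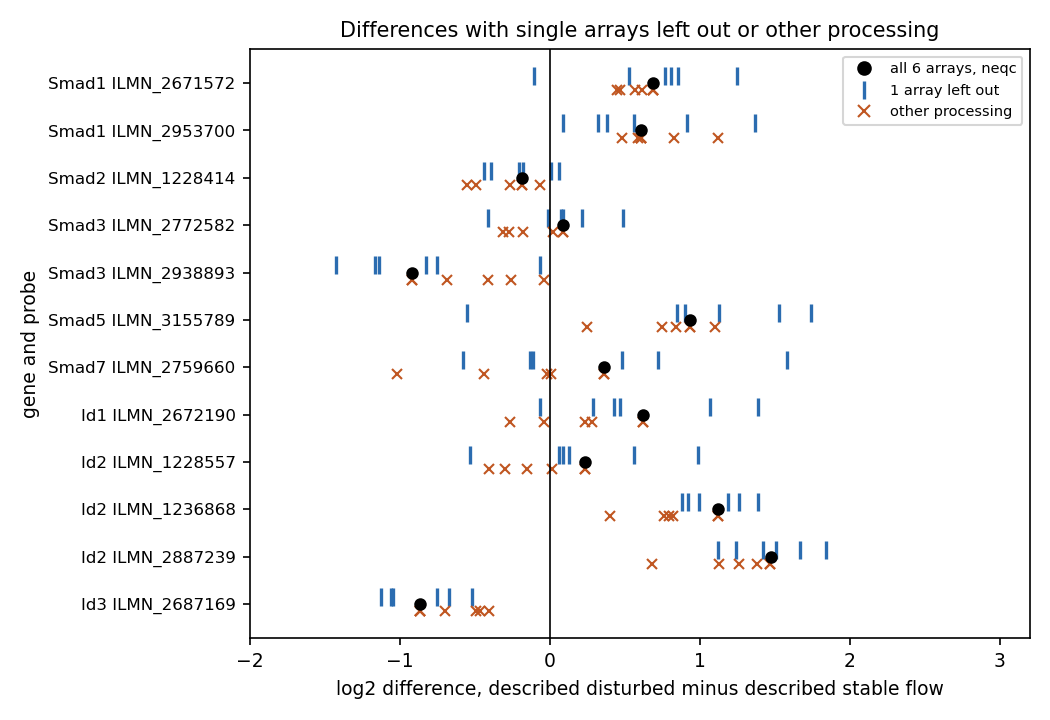
Log2 difference (horizontal axis, described disturbed minus described stable flow) of the 12 tested probes with all 6 arrays (black points), with 1 array left out (blue ticks) and with other background correction, normalization, weights, filter or block (orange crosses), without the matrix columns. Values of 7 probes lie on both sides of 0, and those of 5 on 1 side, namely Id2 probes ILMN_1236868 and ILMN_2887239, Id3, Smad1 probe ILMN_2953700 and Smad3 probe ILMN_2938893.

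The wider pathway was counted in lists of ligands and their traps, receptors, Smad regulators, other Smad targets and E proteins. Of 66 listed genes 34 passed the filter on dim probes, and 0 passed the test, with 21 positive and 13 negative differences and a median of 0.23. Over all tested probes 57.4% of the differences were positive, so these counts do not set the pathway apart. They include Hey1, which passed the filter through the disturbed flow arrays alone. Among 12 Smad regulators, Ski, a corepressor that binds Smads, had 5.06 ± 0.74 against 6.32 ± 0.57 (SD, n = 3 each), a difference of 1.26 (SE 0.50). Tgif1, another corepressor of Smad2 and Smad3, had 5.93 ± 0.86 against 4.74 ± 0.33, a difference of -1.20 (SE 0.49) that was -0.78 without stable flow replicate 2. At a detection threshold of 0.01 Tgif1 was not above background on any disturbed flow array. Ski and Tgif1 both had a limma adjusted p of 0.890, and the list's median was 0.27.

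Among 11 receptors, with a median of 0.26, the smallest p-values were those of Acvrl1, the ALK1 receptor that phosphorylates Smad1 and Smad5 in endothelium, and Tgfbr2, the type II TGF-beta receptor. Acvrl1 had 5.51, 4.29 and 5.21 against 5.78, 6.32 and 6.77 (difference 1.29, SE 0.46), and Tgfbr2 a difference of 1.76 (SE 1.02), or 0.62 without disturbed flow replicate 3. Among 7 ligands and traps, with a median of -0.11, the latent TGF-beta binding protein gene Ltbp3 had a difference of 0.65 (SE 0.47), or 0.20 without stable flow replicate 2. Mgp, an inhibitor of BMPs in the vessel wall, had -0.89 (SE 0.68), which became -0.48 when replicate 1 of disturbed flow was left out and -1.59 when its replicate 3 was.

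The E proteins are the partners that Id proteins bind, and 2 of 3 were measured, with a median of 1.04. Tcf4 had 6.63, 5.71 and 7.05 under stable flow and 8.05, 6.47 and 10.25 under disturbed flow, a difference of 1.79 (SE 0.91, limma adjusted p = 0.890). Like Smad5 it was highest on disturbed flow replicate 3, without which the difference was 0.80. Tcf12 had a difference of 0.29 (SE 0.35). Of 11 other Smad targets the Notch effector genes Hey1 and Hey2 passed the filter. Hey1 passed it through the disturbed flow arrays alone, being above background on 0 stable flow arrays and 3 disturbed flow arrays. The measured means were 4.41 and 5.12, with a fold bound of 1.04, higher under disturbed flow. That bound has no measure of spread, and Hey1 was not called (limma adjusted p = 0.890). Given how it passed the filter, its direction is not read as a result. This bound takes for each dim array the larger of the probe's own value and the lowest value above background, so no difference is given. Hey2 had a difference of 0.13 (SE 0.45).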

How the data were processed

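The authors' deposited table gives per probe and array an unprocessed signal intensity and a detection p-value, read here as the test against background. The deposited series matrix gives a second set of intensity values, linear and not centred (column medians 2.50 to 2.62, shared minimum -17.0), whose background and normalization steps no source used here states. The submitters' processing notes name GenomeStudio 2011.1. Signals were background-corrected, quantile-normalized and log2-transformed with neqc (offset 16) in limma 3.58.1 (R 4.3.3). Probes with detection p under 0.05 on at least 3 of 6 arrays were tested, two-sided, with lmFit and eBayes, and p-values were adjusted over all 12546 by Benjamini-Hochberg. Symbols came from the platform annotation, updated by gene identifier: 34885 probes had 1 symbol, 18 several and 10378 none. The probe with the highest mean stands for its gene. All probes of the members are named, with the 2 genes of smallest p in each pathway list. Members and lists were chosen with earlier results of these data known. The number of arrays limits precision (median SE 0.45). Arrays of the same replicate number did not deviate together (correlations -0.035, -0.074 and -0.085), and the labels do not pair them.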

Additional observations from a re-analysis of the deposited data

How the results depend on the processing

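Called probes numbered 0 under all 15 alternatives, for the whole table, the Smad and Id probes and the pathway genes. Unadjusted p-values under 0.05 numbered 94 (detection on all 6 arrays, 2500 tested) to 2097 (no filter, 45281 tested). The replicate block left every difference as it was, with 329 probes at an unadjusted p under 0.05 and a smallest limma adjusted p of 0.962 among the Smad and Id probes. Giving the matrix columns to arrays of the same rank order, chosen after seeing the data, kept every sign. These columns hold the same rank order as the arrays, so the kept signs are no independent check.

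The matrix columns as named turned all 22 differences named. They gave -0.680 and -0.601 for Smad1 (ILMN_2671572 and ILMN_2953700), 0.229 for Smad2, -0.194 and 0.893 for Smad3 (ILMN_2772582 and ILMN_2938893), -0.931 for Smad5 and -0.509 for Smad7. They gave -0.603 for Id1 and for the median of the Id genes, -0.237, -1.15 and -1.43 for Id2 (ILMN_1228557, ILMN_1236868 and ILMN_2887239) and 0.835 for Id3. In the wider pathway they gave -0.680 for Ltbp3, 0.886 for Mgp, -1.36 for Acvrl1, -1.72 for Tgfbr2, -1.26 for Ski, 1.18 for Tgif1, -0.128 for Hey2, -1.77 for Tcf4 and -0.460 for Tcf12. Hey1, with only a fold bound, had a measured value of -0.888. That turn follows from the exchange of groups.

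For the other reversals the cause was not tested. With scaling to the shared 75th percentile Smad3 ILMN_2772582 had -0.275, Smad7 -0.0193, Id2 ILMN_1228557 -0.156 and Tcf12 -0.0365. Cyclic loess gave -0.183, -0.437 and -0.302 for the first 3 and -0.0392 for Id1, and array weights gave -0.311, -1.02, -0.410 and -0.270. The Id median was then -0.270 with array weights, and -0.869 with detection on all 6 arrays, where Id3 alone was left. With 1 array left out, ranges were -0.104 to 1.25 for Smad1 ILMN_2671572, -0.438 to 0.0573 for Smad2, -0.413 to 0.488 for Smad3 ILMN_2772582, -0.555 to 1.74 for Smad5 and -0.580 to 1.58 for Smad7. They were -0.0635 to 1.39 for Id1 and for the Id median, -0.531 to 0.985 for Id2 ILMN_1228557 and -0.199 to 0.429 for Hey2. With a detection threshold of 0.01 Hey1 gave no fold bound. Tgif1, then not above background on any disturbed flow array, had a bound of 1.85-fold, higher under stable flow (limma adjusted p = 0.890). That bound holds only for all 6 arrays with the main processing. The Tgif1 difference was -0.783 without stable flow replicate 2 and -0.435 with no background correction. At the main detection threshold Tgif1 was above background on 2 disturbed flow arrays, so no bound applies there.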
